A study of Mus musculus with 6 samples.

Results

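Mural cells are the contractile cells wrapped around blood vessels, smooth muscle cells of arterioles and veins together with pericytes of capillaries, and the bladder holds in addition the visceral smooth muscle of its wall. In single-cell RNA-seq data of mouse bladder mucosa, 57 cells of 55399 with over 500 detected genes were chosen as mural and smooth muscle cells by their own unique molecular identifiers (UMIs). A member carried at least 5 UMIs of Myh11, Des and Cnn1 together (smooth muscle myosin heavy chain, desmin and calponin), and more of these than of 6 keratins (Krt5, Krt7, Krt8, Krt15, Krt18 and Krt19) and more than of 4 stromal genes (Col1a1, Col1a2, Col3a1 and Dcn). It carried no UMI of Pecam1 and at most 2 of C1qa, C1qb and C1qc. Levels of these genes in the members are therefore a description of the choice, and genes that vary with them across cells are not independent of it.

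The study profiled the mucosal layer, peeled from the detrusor muscle and digested into single cells, of wild-type C57BL/6 mice that were 8 weeks old, with 2 libraries for each condition. Healthy mice were compared with mice at 48 h after cyclophosphamide (CPP), a drug whose metabolites injure the bladder lining (acute), and with mice that had gone through 4 rounds of CPP over 11 days (chronic). Since the muscle wall was removed by peeling, the detrusor is represented only as far as it stayed with the mucosa. The study describes the libraries of a condition as biological replicates and drew on several mice of both sexes per condition. How the mice were divided over the libraries is not given in the sources used here, nor is which libraries shared a processing batch.

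Smooth muscle cells of vessels and of the bladder wall share the contractile apparatus: actin and myosin filaments, the myosin light chains and their kinase, and thin-filament proteins such as calponin and transgelin. Genes known from vascular muscle and pericytes include the Notch3 receptor, the G-protein regulator Rgs5 and the potassium channel subunit Kcnj8, whereas enteric actin Actg2 and the muscarinic receptors are known from visceral muscle. Many contractile genes are controlled by serum response factor, which binds the CArG box.

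The CArG box was searched as CC, 6 bases that are A or T, and GG (strict form), and in a relaxed form that allows 1 G or C among the 6 bases. Its complement read backwards has the same form, so that each match holds for both strands. The windows were the 250 bases before the transcription start of each gene in RefSeq (GRCm38.p6). The promoters of Acta2 (smooth muscle actin), Myl9 (regulatory myosin light chain) and Pln (phospholamban, the inhibitor of the calcium pump of the sarcoplasmic reticulum) are shown because these genes carry much of the difference between members and stromal cells described below. Matches to the relaxed form are in capitals.
Acta2: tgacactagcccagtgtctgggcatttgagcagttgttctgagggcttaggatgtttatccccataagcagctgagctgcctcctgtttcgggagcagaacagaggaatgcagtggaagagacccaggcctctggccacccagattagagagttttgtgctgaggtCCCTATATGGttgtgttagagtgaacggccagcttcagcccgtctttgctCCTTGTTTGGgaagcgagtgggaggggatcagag
Myl9: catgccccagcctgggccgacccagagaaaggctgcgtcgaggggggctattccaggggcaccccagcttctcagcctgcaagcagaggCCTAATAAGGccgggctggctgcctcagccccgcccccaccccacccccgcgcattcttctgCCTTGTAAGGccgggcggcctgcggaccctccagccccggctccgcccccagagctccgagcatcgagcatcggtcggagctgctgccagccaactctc
Pln: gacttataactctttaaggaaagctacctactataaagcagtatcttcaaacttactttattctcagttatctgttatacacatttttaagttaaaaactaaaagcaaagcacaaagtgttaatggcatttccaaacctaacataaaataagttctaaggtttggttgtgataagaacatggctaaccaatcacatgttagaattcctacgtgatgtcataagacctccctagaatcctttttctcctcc
The Acta2 window, chr19:34255374-34255623 on the minus strand, held matches that begin 84 and 34 bases before the start site, both in the relaxed form only, and the RefSeq span of the gene reaches into this window. In the Myl9 window, chr2:156775214-156775463 on the plus strand, the match 161 bases before the start was strict and the one at 99 bases relaxed. The Pln window, chr10:53337436-53337685 on the plus strand, held neither form. Over 27025 genes with such a window, 1.62% held the strict and 9.78% the relaxed form. Of 25 contractile genes, 5 (20%) held the strict and 9 (36%) the relaxed form, against 1 (6.25%) and 3 (18.8%) of 16 vascular smooth muscle genes and 0 of 12 pericyte genes. Of 18 visceral smooth muscle genes 4 (22.2%) held the strict and 8 (44.4%) the relaxed form. Of 13 fibroblast genes, 0 held the strict form and 4 (30.8%) the relaxed form, of which only the latter share was close to that of the contractile genes. The windows of Rgs5, Notch3, Lmod1 and Tpm2 held none. A match describes these letters only and is no evidence of binding.

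Most members came from 1 library. Healthy replicates 1 and 2 gave 4 and 5 members, acute replicate 1 gave 3, acute replicate 2 gave 45, and both chronic libraries gave 0. As a share of all cells with over 500 genes this was 0.0479% (exact 95% interval 0.0131 to 0.123) of 8347 cells and 0.0516% (0.0168 to 0.12) of 9688 cells in the healthy libraries. In the acute libraries it was 0.0435% (0.00897 to 0.127) of 6901 cells and 0.325% (0.237 to 0.434) of 13864 cells. The chronic libraries held 0 of 11251 and 0 of 5348 cells, which allows shares of up to 0.0267% and 0.0561% by a floor of 3 counts, with exact intervals that reach 0.0328% and 0.0690%. The intervals and limits cover counting error only.

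**Figure D1:**
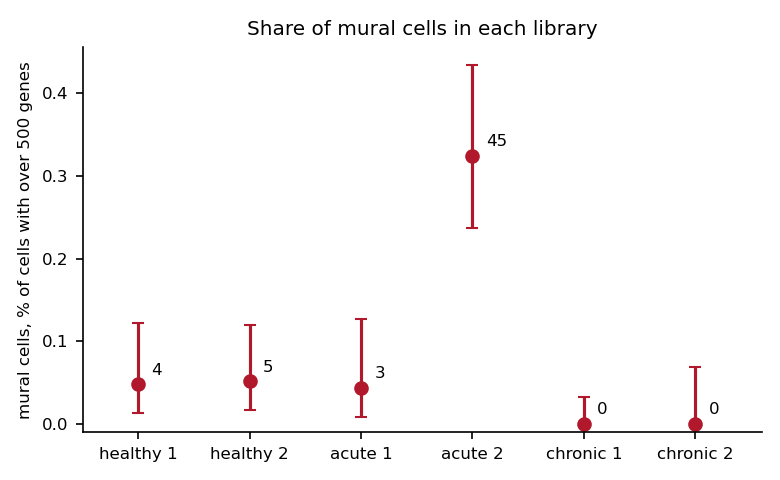
Mural and smooth muscle cells as a share of all cells with over 500 genes, in percent, in each of the 6 libraries, with exact 95% intervals of the counts. Acute replicate 2 sits at 0.325%, above the intervals of the other 5 libraries, and both chronic libraries sit at 0.

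The acute libraries lay on both sides of the healthy ones. The mean share was 0.184% in acute and 0.0498% in healthy libraries, a difference of 0.134 percentage points (exact permutation test over libraries, two-sided, p = 1), which became -0.00629 points without acute replicate 2. Chronic minus healthy was -0.0498 points and acute minus chronic 0.184 points, both with p = 0.333, the smallest that 2 against 2 libraries can give in the exact two-sided permutation test. Without acute replicate 2, acute minus chronic was 0.0435 points. The libraries differed in how much stroma they held. Of cells that were not urothelial, members made up 0.159% and 0.222% in the healthy libraries and 0.347% and 0.699% in the acute libraries. The chronic libraries held only 1608 and 324 such cells, so that 0 members allows up to 0.187% and 0.926% of them, limits that lie above the healthy share in chronic replicate 2 and between the 2 healthy shares in chronic replicate 1. On that scale neither chronic limit, taken alone, lies below both healthy shares, so that fewer mural cells after chronic CPP were not shown. Per 100 stromal cells there were 0.191 and 0.251 members in the healthy, 0.506 and 0.824 in the acute and 0 in both chronic libraries.

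The members held 1949 to 7039 UMIs each (median 3429) and 875 to 2421 genes (median 1337). Their median UMIs per library were 3758, 2836, 3954 and 3418 (healthy replicates 1 and 2, acute replicates 1 and 2, the order used for all values below), below 5399, 3390, 5264 and 5053 in the stromal cells that express Car3 and Cxcl14 and below 10973, 8252, 9535 and 9876 in urothelial cells. The median mitochondrial share was 3.07% to 4.81% of UMIs in members and 2.19% to 3.15% in Car3/Cxcl14 stromal cells. No barcode of a member occurred in another library, whereas any pair of libraries shared 36 to 229 barcodes. By doublet scores 1 member was called a doublet.

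The gate left out most cells with smooth muscle UMIs. Of 213 cells with at least 5 UMIs of Myh11, Des and Cnn1, 109 carried as many or more keratin UMIs, 125 as many or more collagen UMIs and 2 a Pecam1 UMI, with some cells failing more than 1 condition. The 3 members at the threshold of 5 UMIs had 6022 CPM of Acta2 (UMIs per 1000000), counted over all their UMIs, 456 of Pln, 547 of Notch3 and 1095 of Rgs5. The 1 cell just below it, with 4 UMIs, had 2316, 463, 154 and 617.

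Members were compared with both stromal classes of the same 4 libraries, 5548 Car3/Cxcl14 stromal cells and 4589 other stromal cells. The study marks its myofibroblasts by Acta2 together with Car3. UMIs were summed per library and class and are given as CPM over 14338 genes listed in all tables. Across the 4 libraries that held members, 343 of 6436 genes tested (5.33%) were higher and 686 (10.7%) lower than in Car3/Cxcl14 stromal cells at an adjusted p below 0.05 (edgeR quasi-likelihood test with the library as a block). Compared with other stromal cells, 349 of 8904 genes (3.92%) were higher and 658 (7.39%) lower. Acute replicate 2 supplied most of the UMIs, 116804 against 9578 to 12445 in the other libraries, and without it 143 and 134 genes were higher. Fewest genes were lower without acute replicate 1 in the first comparison (317) and without healthy replicate 1 in the second (248), and a gate of at least 10 UMIs left 4 and 99 lower. That gate left only healthy replicate 2 and acute replicate 2 with at least 3 members, so its fits held fewer libraries. Without scaling factors 540 were higher and 753 lower than in Car3/Cxcl14 stromal cells, so that the split depends on the scaling, and the median log2 difference of all genes was -0.58 with TMM factors and -0.28 without them (-0.73 and -0.35 against other stromal cells). No member of any gene list below that was called changed its direction without scaling factors or with DESeq2. The estimate of the spread was shared fully over genes (prior degrees of freedom infinite), and very small p-values rest on that.

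The label fitted the marker genes. Of the 5 markers given for this cell type, Myh11, Des and Cnn1 chose the cells. Myh11 reached 2571, 4261, 2401 and 2414 CPM in members, against 49.96 to 137 in Car3/Cxcl14 stromal cells of the same libraries, Des 643, 663, 1670 and 985 CPM, and Cnn1 964, 852, 522 and 394 CPM. The other two, Acta2 and Rgs5, took no part in the choice, and both were higher than in either stromal class. With a gate of at least 10 UMIs neither passed against Car3/Cxcl14 stromal cells, Acta2 at 2.88 on the log2 scale (edgeR adjusted p = 0.904) and Rgs5 at 3.37 (edgeR adjusted p = 0.232). That fit held only healthy replicate 2 and acute replicate 2.

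Contractile genes were mostly higher in members. Members were chosen by Myh11, Des and Cnn1, and stromal cells with fewer of these UMIs than of stromal genes. Contractile genes that vary with them are therefore not independent of the choice. Of 27 contractile genes tested outside the gate, 19 were higher than in Car3/Cxcl14 stromal cells and 0 lower, where 5.33% of all genes were higher, with a median log2 difference of 2.67 against -0.58 over all genes. Against other stromal cells 22 of 26 were higher and 0 lower (3.92% and 7.39% of all genes), with a median of 3.46 against -0.73. Acta2 (chr19:34240336-34255585, GRCm38.p6), the main actin of smooth muscle, reached 21776, 17614, 8144 and 13664 CPM in members. It stood at 698 to 1552 CPM in Car3/Cxcl14 stromal cells and 50.7 to 121 in other stromal cells, so that the summed levels of no library overlapped, although single members held as few as 2 Acta2 UMIs. The log2 difference was 3.10 ± 0.45 (SE, adjusted p = 2.96e-10) against the first and 6.71 ± 0.52 (adjusted p = 6.62e-35) against the second. The actins are alike in their coding sequence, and how reads shared between them were counted is not given in the sources used here.

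Tagln, the actin-binding protein transgelin, was at 9803, 12689, 11171 and 11798 CPM against 409 to 1533 CPM in Car3/Cxcl14 stromal cells. Myl9 was similarly even, at 10767, 11458, 8770 and 9965 CPM against 659 to 964 CPM. The log2 differences against Car3/Cxcl14 stromal cells were 3.15 for Tagln and 3.02 for Myl9, and against other stromal cells 6.79 and 6.85. Mylk, the kinase that phosphorylates the light chain and starts contraction, was at 2009, 2652, 1670 and 1687 CPM against 330 to 518 CPM, a smaller difference of 1.53 on the log2 scale (adjusted p = 0.0121). Lmod1, leiomodin, which nucleates actin filaments in smooth muscle, was at 804, 852, 522 and 479 CPM against 13.9 to 89.9 CPM, a difference of 3.43. Not every contractile gene separated the classes: Csrp1 and Cald1 differed by 0.13 (adjusted p = 0.889) and 0.91 (adjusted p = 0.172) from Car3/Cxcl14 stromal cells, and by 1.90 and 1.71 (adjusted p = 0.00621 for Cald1) from other stromal cells.

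**Figure D2:**
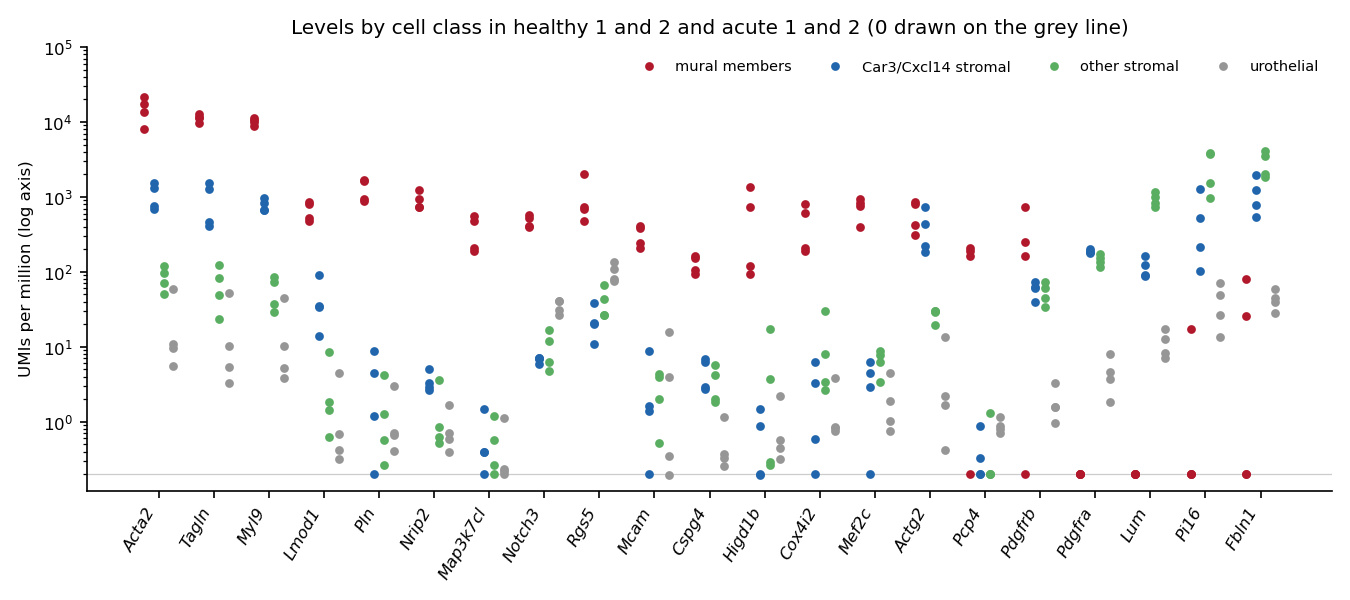
Levels of selected genes in CPM on a log axis, 1 point per library that held members (values of 0 on the grey line), in members, Car3/Cxcl14 stromal cells, other stromal cells and urothelial cells. Members of every library lie above both stromal classes for Acta2, Pln, Notch3 and Rgs5, whereas Actg2 in members lies within or just above the range of the Car3/Cxcl14 stromal cells.

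Nearly all genes of the vascular smooth muscle list that could be tested were higher in members than in stromal cells. Neither comparison was with visceral muscle, so that these differences cannot tell vascular from visceral identity. Of 11 tested from a list of 20, 10 were higher than in Car3/Cxcl14 stromal cells, where 5.33% of all genes were, with a median log2 difference of 4.77, and 10 of 11 were higher than in other stromal cells, where 3.92% of all genes were, with a median of 6.70. Pln (chr10:53337686-53345999) was at 884, 1610, 940 and 1687 CPM in members, at 0 to 8.80 CPM in Car3/Cxcl14 stromal cells and at 0.264 to 4.23 CPM in other stromal cells. Its log2 differences of 8.88 ± 0.71 (SE, adjusted p = 6.79e-33) and 9.22 ± 0.70 (adjusted p = 1.95e-35) were among the 10 largest rises of both comparisons. A Pln UMI was found in 51 of 57 members (89.5%), against 0.379% of 5548 Car3/Cxcl14 stromal, 0.240% of 4589 other stromal and 0.370% of 26740 urothelial cells of the same 4 libraries, although the median member held fewer UMIs than the median Car3/Cxcl14 stromal and urothelial cell. Sncg, gamma-synuclein, was at 804, 1420, 2193 and 1627 CPM, against 1.37 to 11.7 CPM in Car3/Cxcl14 stromal cells. Nrip2, a nuclear receptor interacting protein, was at 723, 947, 1253 and 728 CPM against 2.65 to 5.13 CPM. Bcam, the laminin receptor of the Lutheran blood group, was at 643, 1420, 731 and 908 CPM and differed by 4.77 on the log2 scale.

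Visceral smooth muscle genes were divided. Of 20 on the list, 12 were listed in all tables and the muscarinic receptors Chrm2 and Chrm3, the purinergic receptor P2rx1 and the tachykinin receptor Tacr2 were not among them. Against Car3/Cxcl14 stromal cells 5 of the 12 were higher (Pcp4, Synpo2, Cacna1c, Pcp4l1 and Filip1l) and 1, Hhip, was lower, with a median log2 difference of 0.75, where 5.33% of all genes were higher and 10.7% lower. Against other stromal cells 7 were higher and 0 lower (3.92% and 7.39% of all genes), with a median of 2.85. Actg2 (chr6:83512909-83536251), the actin of visceral muscle, was at 804, 852, 313 and 428 CPM in members and at 185 to 738 CPM in Car3/Cxcl14 stromal cells, so that the groups overlapped. The log2 difference was 0.03 ± 0.52 (SE, adjusted p = 0.979), and its sign changed under several alternatives. Against other stromal cells, at 19.4 to 30.2 CPM, Actg2 was higher by 3.66 ± 0.55 (adjusted p = 2.24e-09).

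Pcp4l1 was the most abundant visceral gene of the list with a large difference, at 1366, 2841, 835 and 1318 CPM against 1.57 to 7.33 CPM in Car3/Cxcl14 stromal cells, 8.33 on the log2 scale. Its relative Pcp4 was at 161, 189, 0 and 205 CPM and differed by 9.04, with no UMI in the 3 members of acute replicate 1. A Pcp4 UMI was found in 6 of 5548 Car3/Cxcl14 stromal cells, so that this size rests on few stromal UMIs. Hhip, the decoy receptor of hedgehog ligands, was found only in healthy replicate 1 (80.4 CPM) among members and stood at 52.2 to 291 CPM in Car3/Cxcl14 stromal cells, a log2 difference of -5.16 (adjusted p = 9.76e-05).

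Part of the calcium machinery was higher. Of 12 ion channel and calcium genes tested, 7 were higher and 1 lower than in Car3/Cxcl14 stromal cells, with a median of 2.16, where 5.33% of all genes were higher and 10.7% lower. The lower gene, the mechanically gated channel Piezo1, had no UMI in members, passed the filter through the stromal cells and was at least 1.71-fold lower, and DESeq2 called 0 lower. Of 11 tested against other stromal cells 5 were higher and 1, again Piezo1, lower (3.92% and 7.39% of all genes), with a median of 3.03. The pump that phospholamban inhibits, Atp2a2, was at 482, 568, 522 and 402 CPM and differed by 1.57 from Car3/Cxcl14 stromal cells (adjusted p = 0.0255) and by 1.48 from other stromal cells (adjusted p = 0.0529).

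Most pericyte genes of the list were higher too. Of 14 tested, 11 were higher and 2 (Cd248 and Colec11) lower than in Car3/Cxcl14 stromal cells, where 5.33% of all genes were higher and 10.7% lower, with a median log2 difference of 4.62. Colec11 had no UMI in members, passed the filter through the stromal cells and was at least 1.93-fold lower, and DESeq2 called 0 pericyte genes lower. In the other comparison 11 of 13 were higher and 1 (Cd248) lower (3.92% and 7.39% of all genes), with a median of 4.38. Rgs5 (chr1:169655501-169695813), which shortens signalling through G proteins and is known from pericytes, was at 2009, 473, 731 and 685 CPM in members, at 10.8 to 38.0 CPM in Car3/Cxcl14 stromal cells and at 26.7 to 67.4 CPM in other stromal cells. The log2 differences were 4.82 ± 0.59 (SE, adjusted p = 3.83e-14) and 3.73 ± 0.56 (adjusted p = 2.08e-09). Higd1b was at 723, 94.7, 1357 and 120 CPM, where 1 member each held 8 UMIs in healthy replicate 1 and 12 in acute replicate 1. Kcnj8 was at 80.4, 0, 418 and 34.2 CPM, with at most 4 UMIs in a member, so that the order of the libraries cannot be read for these genes.

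Cspg4, the proteoglycan NG2 that the study used as its mural marker, was low but present in each library, at 161, 94.7, 104 and 154 CPM against 2.74 to 6.93 CPM in Car3/Cxcl14 stromal cells, a log2 difference of 4.42 (adjusted p = 9.62e-12). Pdgfrb, the receptor through which endothelial cells recruit pericytes, was at 161, 0, 731 and 248 CPM against 39.6 to 73.4 CPM, a difference of 1.59 (adjusted p = 0.0317), and the members of healthy replicate 2 held none. Mcam, the adhesion molecule CD146, was at 241, 379, 209 and 411 CPM against 0 to 8.80 CPM. Rgs4, a relative of Rgs5, was at 402, 473, 731 and 428 CPM against 0 to 1.47 CPM in Car3/Cxcl14 stromal cells. Its log2 difference of 9.79 was among the 10 largest rises and rests on few stromal UMIs. Cd248, endosialin, which is known from pericytes and fibroblasts, went the other way, at 0, 0, 0 and 42.8 CPM against 71.9 to 253 CPM.

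Rgs5 was not particular to these cells in the mucosa. A Rgs5 UMI was found in 26 of 57 members (45.6%), in 23.8% of urothelial cells, in 5.82% of Car3/Cxcl14 stromal and in 6.62% of other stromal cells, and the urothelial level was 75.1 to 137 CPM. Of 1195 cells with at least 5 Rgs5 UMIs in the whole series, 1122 were urothelial, 19 stromal, 11 members and 6 endothelial. For Acta2 the cells with at least 5 UMIs were mostly stromal, 1996 of 2208, and 56 were members.

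Of 10 genes of the Notch list tested, 4 were higher than in Car3/Cxcl14 stromal cells (Notch3, Jag1, Nrarp and Nrip2, where 5.33% of all genes were higher) and 0 lower, with a median of 0.32. Compared with other stromal cells 4 of 10 were higher, where 3.92% of all genes were. Notch3 (chr17:32120820-32166896) was at 402, 568, 522 and 411 CPM in members and at 5.87 to 7.07 CPM in Car3/Cxcl14 stromal cells, a log2 difference of 5.52 ± 0.58 (SE, adjusted p = 2.09e-19), and urothelial cells held 26.2 to 40.9 CPM. The ligand Jag1 was at 0, 189, 0 and 128 CPM (2.47) and the feedback inhibitor Nrarp at 241, 284, 104 and 231 CPM (2.84). The target Hes1, at 1366, 1136, 1670 and 1113 CPM, differed by 0.30 (adjusted p = 0.719).

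Of 24 genes of PDGF, angiopoietin and TGF-beta signalling, 5 were higher and 7 lower than in Car3/Cxcl14 stromal cells (5.33% and 10.7% of all genes), with a median of -1.52, and of 26 tested 4 were higher and 6 lower than in other stromal cells (3.92% and 7.39% of all genes), or 3 and 3 with DESeq2, with a median of -1.27 (-1.40 and -1.17 with the genes that no member carried set at the bound given below). Pdgfa, the ligand of the receptor on fibroblasts, was at 482, 568, 104 and 454 CPM and higher by 3.06. Ltbp1, which stores latent TGF-beta in the matrix, was at 804, 379, 418 and 402 CPM and higher by 3.89. Among the lower genes of both comparisons, Pdgfra, Bmp4, Igf1 and Mdk had no UMI in any member and passed the filter through the stromal cells. Bmp4 was at least 22.0-fold lower than in Car3/Cxcl14 stromal cells. Such bounds compare the mean CPM over the 4 libraries with a floor of 3 UMIs in the members' summed UMIs, 20.1 CPM.

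Receptors for vessel-acting signals were sparsely measured. Of 30 on the list, 17 were listed in all tables, and 5 of these passed the filter against Car3/Cxcl14 stromal cells. The angiotensin receptor Agtr1a and the adrenergic receptors Adra1a, Adra1b and Adra1d were not among the 17. Ednra, the endothelin receptor of vascular muscle, was at 80.4, 189, 104 and 146 CPM against 13.3 to 46.9 CPM (1.64, adjusted p = 0.0307), and against other stromal cells it was higher by 4.26. Ramp1, which turns the calcitonin receptor-like protein into the receptor of the vasodilator CGRP, was at 321, 284, 1148 and 779 CPM against 7.96 to 229 CPM (2.43). Its partner Calcrl differed by -2.21 from Car3/Cxcl14 stromal cells (adjusted p = 0.0328) and the vasopressin receptor Avpr1a by -3.71 (adjusted p = 0.00172). Of the 5 tested 3 were higher and 2 lower, where 5.33% of all genes were higher and 10.7% lower. With DESeq2 2 of the 5 were higher and 1 lower. Of 9 tested against other stromal cells 2 were higher (Ednra and Ramp1) and 0 lower, where 3.92% and 7.39% of all genes were. The median there was -0.60 against -0.73 over all genes. Npy1r, the receptor of the sympathetic transmitter neuropeptide Y, was at 482, 189, 0 and 197 CPM and higher by 2.91 than in Car3/Cxcl14 stromal cells, whereas against other stromal cells the difference was -0.60 (adjusted p = 0.550).

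Matrix genes were called in both directions. Of 27 basement membrane and integrin genes, 8 were higher and 7 lower than in Car3/Cxcl14 stromal cells (5.33% and 10.7% of all genes), with a median of -0.56, and of 28 tested 7 were higher and 5 lower than in other stromal cells (3.92% and 7.39% of all genes), with a median of 0.33 against -0.73 over all genes. Among the lower genes of both comparisons, Col15a1, Lamb1 and Fbln5 had no UMI in members and passed the filter through the stromal cells. Without scaling factors 13 were higher and 6 lower than in other stromal cells. Sparcl1 and Sparc, related matricellular proteins, went in opposite directions. Sparcl1 was at 3616, 2746, 2297 and 2568 CPM against 58.7 to 420 CPM, 3.84 higher, and Sparc at 2170, 1326, 3237 and 1627 CPM against 6567 to 11899 CPM, a difference of -2.97. Itga7, the laminin-binding integrin subunit of muscle, was at 241, 94.7, 313 and 128 CPM and higher by 7.87. Col18a1 was at 562, 663, 522 and 257 CPM and higher by 2.26, whereas Col4a1, the main basement membrane collagen, at 482, 379, 418 and 274 CPM, differed by -1.09 (adjusted p = 0.155).

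Among 15 regulators of muscle genes, 5 were higher (Mef2c, Foxs1, Nr2f2, Ebf1 and Epas1) and 2 lower (Tcf21 and Prdm6) than in Car3/Cxcl14 stromal cells, where 5.33% of all genes were higher and 10.7% lower. Prdm6 had no UMI in members, passed the filter through the stromal cells and was at least 3.34-fold lower. Mef2c, a partner of muscle transcription factors, was at 402, 758, 940 and 830 CPM against 0 to 6.26 CPM, 6.99 on the log2 scale. Ebf1 was at 643, 284, 522 and 488 CPM and higher by 5.77. Foxs1, a forkhead factor known from perivascular cells, was at 80.4, 94.7, 0 and 85.6 CPM and higher by 6.59. Tcf21, a factor of fibroblast precursors, was at 0, 0, 0 and 94.2 CPM against 211 to 779 CPM, -3.65 on the log2 scale. Of 11 regulators that mark position in the bladder stroma, 1 (Hoxd9) was higher and 4 (Hoxa11, Foxf1, Pitx1 and Osr1) were lower, with a median of -1.45, and DESeq2 called 0 higher and 3 lower. Pitx1 had no UMI in any member and was at least 9.95-fold lower.

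Beyond the lists, the 10 largest rises against Car3/Cxcl14 stromal cells held Gja4, the gap junction protein connexin 37 of vessels, at 402, 94.7, 209 and 283 CPM (8.71), and S1pr3, a receptor of sphingosine 1-phosphate, at 321, 379, 104 and 163 CPM (8.40). The homeobox gene Prrx1 was at 80.4, 189, 209 and 103 CPM against 0 to 0.884 CPM (8.10). Mean stromal levels of Gja4, S1pr3 and Prrx1 were 0.281, 0.436 and 0.369 CPM, so that these sizes rest on few stromal UMIs. The order of the 10 largest rises cannot be read. The 10 falls chosen by fitted log2 difference were Mdk, Spon1, Spon2, Nkain4, Bmp4, Vcan, Fbln5, Creb3l1, Kcnk2 and Olfml3, none with a UMI in a member, so that their order cannot be read. Mdk, the growth factor midkine, was at least 20.1-fold lower, Spon2 at least 28.2-fold and the elastic fibre protein Fbln5 at least 16.1-fold lower.

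Nearly all fibroblast genes were lower in members. Members were chosen with fewer UMIs of the 4 stromal genes than of Myh11, Des and Cnn1, and stromal cells with more. Genes that vary with these are therefore not independent of the choice. Of 19 fibroblast genes tested, 17 were lower and 0 higher than in Car3/Cxcl14 stromal cells, where 10.7% of all genes were lower. The median log2 difference was -3.87. Compared with other stromal cells 19 of 20 were lower, where 7.39% of all genes were, with a median of -5.62. Of these calls, those of Pdgfra, Lum, Mfap5 and Fbln2, and of Dpt in the second comparison, rest on genes without a UMI in members that passed the filter through the stromal cells. With the genes that no member carried set at their bound, explained above, the medians were -3.14 and -3.93. Pdgfra, the receptor that defines fibroblasts, had no UMI in the 57 members and was at least 9.42-fold lower than in Car3/Cxcl14 stromal cells (189 CPM) and at least 7.19-fold lower than in other stromal cells (144 CPM). Lum and Mfap5, a proteoglycan and a microfibril protein, had none either and were at least 46.1-fold and 49.1-fold lower than in other stromal cells. Ly6a, the surface protein Sca-1, was at 161, 0, 104 and 120 CPM against 1661 to 3071 CPM. Of 10 further genes of the Car3/Cxcl14 class, 6 were lower and 0 higher than in the Car3/Cxcl14 stromal cells, of which Pdgfra and Pitx1 had no UMI in members and passed the filter through the stromal cells. Those stromal cells were themselves chosen by Car3 and Cxcl14, so genes that vary with these are not independent of the choice. Car3 was at 0, 0, 0 and 154 CPM in members and Cxcl14 at 0, 0, 313 and 300 CPM, where the urothelial cells of acute replicate 2 held 137 and 250 CPM of them.

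**Figure D3:**
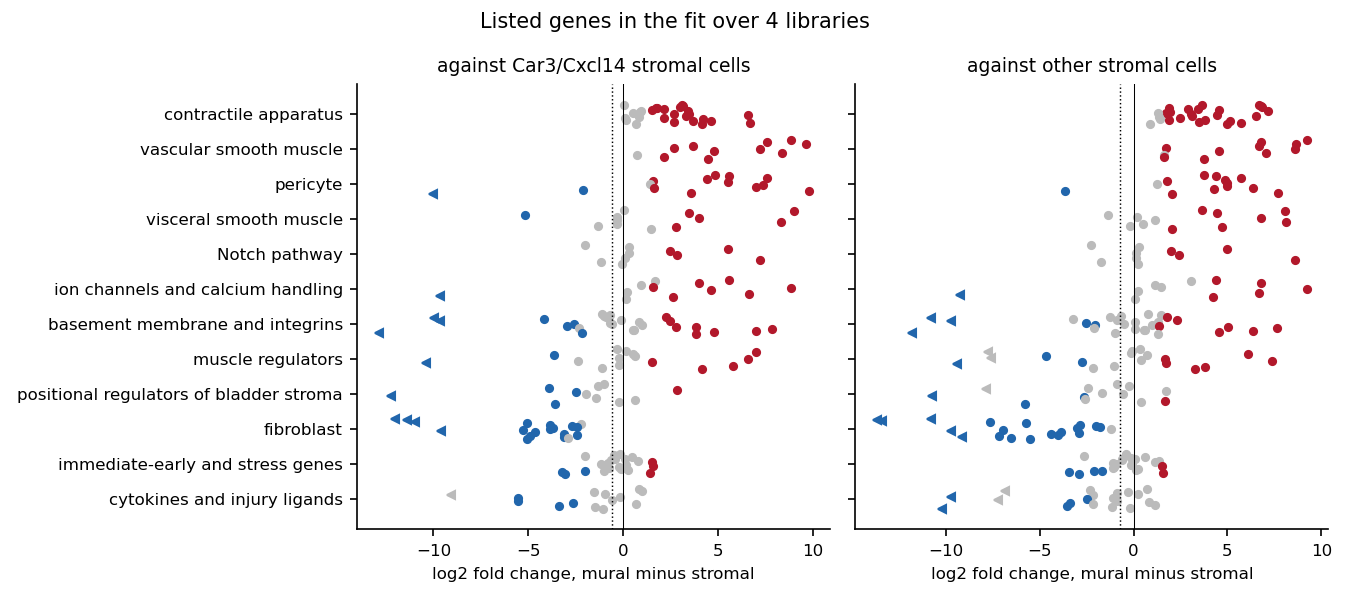
Log2 differences between members and the stromal classes for the genes of each list, 1 mark per gene and 1 panel per stromal class. Red genes were higher and blue genes lower at an adjusted p below 0.05, grey genes were not called, triangles are genes without a UMI in members, whose fitted position is no measured size, and the dotted line is the median of all genes (-0.58 and -0.73). Contractile, vascular and pericyte genes lie mostly above 0 and fibroblast genes below it.

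Markers of other cell types were read in the members as sums. The 9 urothelial markers outside the gate came to 723, 4451, 626 and 2029 CPM, all 9 detected, against 15717 to 18507 CPM in urothelial cells and 1751 to 4644 CPM in Car3/Cxcl14 stromal cells. Endothelial markers came to 248 to 643 CPM against 8.84 to 29.4 CPM in Car3/Cxcl14 stromal cells. In all but acute replicate 1 the sum was mostly Esam, an adhesion molecule (482, 284, 104 and 231 CPM). Of the 9 endothelial markers outside the gate 4 were detected, Esam, Emcn, Plvap and Egfl7, whereas Cdh5, Kdr, Cldn5, Vwf and Tie1 were at 0. Macrophage markers came to 0 to 94.7 CPM with Cd68, Csf1r and Fcer1g at 0, and all 5 markers of striated muscle were at 0. NK and T cell markers came to 0 to 94.7 CPM, with Hcst, Nkg7 and Gzma at 0, and mesothelial markers to 0 to 379 CPM, with Nkain4 at 0.

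Immediate-early and stress genes, which tissue digestion is known to raise, came to 27240 to 36648 CPM in members, 14345 to 25925 CPM in Car3/Cxcl14 stromal cells and 12413 to 31193 CPM in other stromal cells. Of 24 tested against Car3/Cxcl14 stromal cells 3 were higher (Atf3, Klf2 and Hspb1) and 3 lower (Hspa1a, Hspa1b and Dnajb1). Of all genes 5.33% were higher and 10.7% lower. The median log2 difference was -0.44 against -0.58 over all genes. Without scaling factors 8 were higher. Of 24 tested against other stromal cells 2 were higher and 4 lower (3.92% and 7.39% of all genes). The part of digestion in the differences above was not tested. Of 14 p53 targets tested against Car3/Cxcl14 stromal cells 0 were higher and 3 lower. Of 14 cytokine and injury ligand genes in that comparison 0 were higher and 4 lower, where 5.33% of all genes were higher and 10.7% lower. Without scaling factors 3 were higher in each of these lists, with 3 and 4 lower, and DESeq2 called 1 p53 target higher and 1 lower.

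In acute replicate 2 alone, where 45 members could be set against 3808 and 1651 stromal cells, 356 of 3977 genes with at least 50 CPM (8.95%) were at least 4-fold higher than in Car3/Cxcl14 stromal cells and 227 (5.71%) at least 4-fold lower. Set against other stromal cells, 388 of 3974 (9.76%) were at least 4-fold higher and 229 (5.76%) lower. Of the 27 contractile genes outside the gate, 16 were at least 4-fold higher than in Car3/Cxcl14 stromal cells and 0 lower. These are counts in 1 library, with no replicate check.

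Members differed among themselves. Acta2 was found in all 57, from 2 to 167 UMIs with a median of 34, and Tagln in 56. Notch3 was found in 37 members (64.9%, against 16.8% of urothelial and 2.38% of Car3/Cxcl14 stromal cells), Mcam in 37 (64.9% against 2.06% and 0.631%) and Actg2 in 30 (52.6% against 2.42% and 46.3%). These shares pool libraries that gave unlike parts of each class. In acute replicate 2 alone Actg2 was found in 51.1% of members, 6.88% of urothelial and 50.6% of Car3/Cxcl14 stromal cells. Over all libraries Pdgfrb was found in 24 members, Cspg4 in 19, Higd1b in 13, Pcp4 in 12 and Kcnj8 in 6. Rgs5 and Notch3 were found together in 18 members and neither in 12. Of the 13 members with Higd1b, 11 also held Rgs5, and of the 30 with Actg2, 29 also held Pln. Rgs5 and Actg2 were found together in 10 members, so that the genes did not split the members cleanly at this depth.

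**Figure D4:**
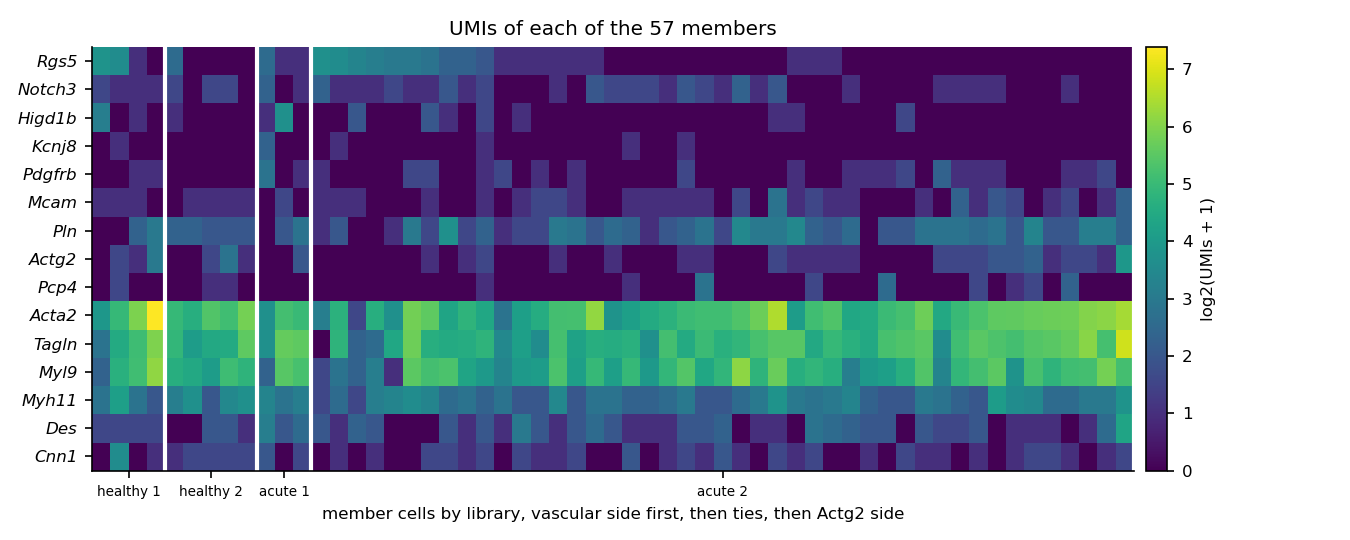
UMIs of selected genes in each of the 57 members as log2(UMIs + 1), with members as columns grouped by library and ordered within each from the vascular to the Actg2 side, which are defined in the next paragraph. Acta2, Tagln and Myl9 are present in nearly every member, whereas Rgs5, Higd1b and Actg2 are at 0 in many of them.

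To describe this range, members with more UMIs of Rgs5 and Notch3 than of Actg2 were set on a vascular side (32 members, 3, 1, 2 and 26 per library) and those with more Actg2 on an Actg2 side (15 members, 1, 2, 1 and 11), and 10 were tied. Many of these differ by few UMIs, since the medians of Notch3 and Actg2 were 1 UMI and that of Rgs5 was 0. The vascular side drew on both Rgs5 and Notch3 and the other on Actg2 alone, so that the larger side cannot be read as a majority. Only acute replicate 2 held at least 10 of each side, so that there is no test, and the values below carry exact 95% Poisson intervals that cover counting error only. Acta2 was at 11655 CPM (10856 to 12497) on the vascular side and 17903 (16443 to 19458) on the Actg2 side. Tagln was at 8907 and 16611 CPM and Vim, vimentin, at 2319 and 5655 CPM, in the same order. Fhl1, a LIM protein of muscle, was at 177 (91.6 to 310) and 1034 CPM (707 to 1460). Ndufa4l2, a mitochondrial protein known from pericytes, was at 1123 (885 to 1405) on the vascular side and 549 (320 to 880) on the Actg2 side. Other pericyte genes went both ways, with overlapping intervals. Pdgfrb (177 and 355 CPM), Cspg4 (148 and 226 CPM) and Mcam (355 and 582 CPM) were at lower values on the vascular side. Cox4i2 (768 and 388 CPM), Rgs4 (428 and 291 CPM) and Kcnj8 (59.1 and 0 CPM) were at higher values there. Crip1, a gene of the vascular list, was higher on the Actg2 side, at 18184 (17182 to 19229) and 26370 (24592 to 28243) CPM. The intervals of Pln, at 1507 and 1971 CPM, of Sncg and of Nrip2 overlapped between the sides, so that these genes of the vascular list were present on both. Higd1b was at 162 (81.1 to 291) and 0 (0 to 119) CPM, which also overlap.

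Cycling was concentrated in few members. The members held 117 UMIs of 14 cycling genes, of which 50 and 36 lay in 2 members and 0 in 35 members, and the next highest held 3. Mki67 was at 0. Per library the sum was 80.4, 94.7, 0 and 985 CPM.

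The injury comparison that the series was made for could be fitted only between acute and healthy, with 12 members in all outside acute replicate 2. Of 165 genes tested 0 were higher (0%) and 0 lower at an adjusted p below 0.05 (edgeR), with 11 at an unadjusted p below 0.05, and DESeq2 likewise called 0, with 3. The largest values by p were Id3, a target of BMP signals, at 2893, 2367, 8770 and 5085 CPM (log2 difference of acute minus healthy 1.33, edgeR adjusted p = 0.581), and the metallothionein Mt1, at 3375, 1326, 5011 and 9409 CPM (1.56, adjusted p = 0.581). Both acute libraries lay above both healthy ones for these genes, which were named by their p in the same libraries, so that this order adds no support. The 12 contractile genes tested had a median difference of -0.38 and the 14 immediate-early genes one of -0.11, against -0.03 over all genes.

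A wider gate, added after seeing the data, shows what the first one left out. Cells with at least 10 UMIs of Acta2, Tagln and Myl9 together, with the other conditions kept, numbered 136 (12, 10, 9, 104, 0 and 1 over the 6 libraries) and contained all 57 members. The conditions on keratins and collagens were then set against these 3 genes. The 79 others held 593 CPM of Myh11, 264 of Des, 492 of Pln, 280 of Notch3 and 903 of Rgs5 over all their UMIs, and 9.12 of Pdgfra and 3.04 of Lum. The members, on the same scale, held 1924 of Myh11, 735 of Des, 1178 of Pln, 322 of Notch3 and 589 of Rgs5. The others also held more UMIs of other cell types, with 377 CPM of Upk1b, 304 of Cxcl14 and 109 of Car3 against 161, 191 and 90.6 in members, and the part of these in their Rgs5 and Notch3 levels was not tested. Of the 79 cells, 1 came from chronic replicate 2.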

How the data were processed

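Single cells were captured with a droplet-based 3′ kit. Per the labels and the methods of the study, reads were aligned to mm10 and UMIs counted with Cell Ranger, and the authors deposited raw UMI counts per gene and cell, without normalization, as 1 table per library. Some tables leave out rarely seen genes and acute replicate 2 used a newer gene set, so that 14338 genes common to the 6 tables were used, after mitochondrial and ribosomal protein genes were dropped. The 6 libraries held 54604109 to 111985678 UMIs.

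Cells with over 500 genes were gated by raw UMIs. No filter on doublets was used. Doublets were scored with Scrublet in scanpy 1.11.5 and called at 0.8% per 1000 cells as an alternative. The members, gene lists and comparisons were chosen with earlier results of these data known. UMIs were summed per library and class and tested with edgeR 4.0.16 (TMM, filterByExpr, quasi-likelihood test, library as a block, Benjamini-Hochberg adjustment at 0.05) in R 4.3.3, with DESeq2 1.42.0 as an alternative. The design asked for at least 10 cells of both classes per library, which only acute replicate 2 met, so the minimum was lowered to 3 after seeing the data, and acute replicate 2 is also given alone, as 4-fold differences at 50 CPM or more. Genes that chose a class were not tested. Standard errors were taken as the size of the log2 difference over the root of the quasi-likelihood F. Named genes are those of the lists and the 10 largest rises and falls with a mean of at least 50 CPM in the higher class and 1 direction in every library. Shares were compared with exact permutation tests. The scripts were tested on simulated counts. Python 3.11.15, scipy 1.17.1 and pandas 2.3.3 were used. Alternatives were other gates, filters, scalings, blocks, and leaving out each library. Gene coordinates and promoter sequences are from RefSeq (GRCm38.p6). The promoter of Tagln is not shown. A further list of markers is not reported here.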

Additional observations from a re-analysis of the deposited data

How the results depend on the processing

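Of the values that answer a comparison, 75 kept their direction and, for tests, their side of the threshold, or as counts lay within 1.5 times, 26 counts moved further and 1 value reversed. The acute minus healthy share ranged from -0.00629 to 0.275 percentage points over the libraries left out, reversing without acute replicate 2, and acute minus chronic from 0.0435 to 0.325. With the replicate block (differences between libraries of the same number) the share differences were 0.134, -0.0498 and 0.184 points, equal by construction to those without it, and in the injury comparison the block gave 0 calls, with 19 genes at an unadjusted p below 0.05. The sources used here do not say that same-numbered libraries shared a batch or litter. The number of members was 25 with a gate of at least 10 UMIs and 136 with the thin-filament gate. Against Car3/Cxcl14 stromal cells, DESeq2 called 417 genes lower and 289 higher, and 540 were higher without scaling factors. With the gate of at least 10 UMIs 63 were higher and 4 lower, with at least 5 cells per library 210 and 306, and leaving out each library gave 143 to 338 higher and 317 to 562 lower, the fewest lower without acute replicate 1 (412 and 395 without healthy replicates 1 and 2). Against other stromal cells, DESeq2 called 382 lower and 340 higher, 630 were higher without scaling factors, the gate of at least 10 UMIs gave 122 and 99, at least 5 cells per library 172 and 104, and leaving out each library 134 to 300 higher and 248 to 604 lower (248, 305 and 366 lower without healthy replicates 1 and 2 and acute replicate 1). In acute replicate 2 alone the gate of at least 10 UMIs gave 120 and 135 genes at least 4-fold lower. In the injury comparison, leaving out a library left 1 group with 1 library, so that calls are not counted there. The log2 difference of Mt1 was 2.51 without healthy replicate 1, and that of Meg3 was -3.03 without healthy replicate 2. For Actg2 against Car3/Cxcl14 stromal cells the log2 difference reversed to -0.014 without a filter on low counts, -0.16 without doublets, -0.11 with the gate of at least 10 UMIs, -0.50 with at least 5 cells per library and -0.14 without healthy replicate 1, and over the libraries left out it ranged from -0.14 to 0.33. With the gate of at least 10 UMIs Acta2 (2.88) and Rgs5 (3.37) no longer passed against Car3/Cxcl14 stromal cells. In the fits against stromal cells, that gate and the minimum of 5 cells per library each left only healthy replicate 2 and acute replicate 2. Values under those settings therefore also rest on fewer libraries. The causes were not tested.

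Not run were at least 20 cells per library and the fits between the sides of the members, since 1 library met those minimums, and the injury comparison with at least 5 members per library, which left 1 library per group. The few members limit every value outside acute replicate 2: 1 UMI was worth between 80.4 and 104 CPM in the other libraries, so that differences between single libraries at 0 to 3 UMIs cannot be read. The wider gate, the minimum of 3 cells and that of 5 against stromal cells were chosen after seeing the data.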
